A study of Rattus norvegicus with 4 samples.

Results

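The 10 genes described here encode proteins of the growing axon tip and its cytoskeleton: the membrane proteins Gap43, Basp1, Marcks and Marcksl1, the stathmins Stmn1 and Stmn2, and the collapsin response mediator proteins (CRMPs) encoded by Dpysl2, Dpysl3, Dpysl5 and Crmp1. They were chosen by gene name, and all 10 were found among the 18755 genes listed in each library. The libraries came from primary cells of the cerebral cortex of Sprague Dawley rats at embryonic day 16, grown for 24 h at 100000 cells per well in Neurobasal medium with B27 on a plain hydrogel called SFMA or on a lettered form of it, N-SFMA, L-SFMA or NL-SFMA. Each hydrogel had 5 parallel wells and gave 1 library of poly(A) RNA, and the labels do not tell whether the wells were pooled or what N and L mean. Where 4 values of a gene follow each other they stand for SFMA first, then N-SFMA, then L-SFMA and last NL-SFMA. The series asks how a cue for adhesion between cells, built into a hydrogel, acts on neural growth. With 1 library per hydrogel no difference can be set against a spread between replicates, so no p-value is given, and the 95% intervals cover counting error only.

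A growth cone is the motile end of a growing neurite, where the membrane, actin filaments and microtubules are remodelled. GAP-43, BASP1, MARCKS and MARCKS-like 1 are lipid-anchored proteins that bind the membrane lipid PIP2 through basic stretches and release it when protein kinase C phosphorylates them or calmodulin binds. Stathmins bind free tubulin and promote the disassembly of microtubules until they are phosphorylated. CRMPs bind tubulin and other cytoskeletal proteins and carry signals of semaphorin receptors, and the CRMP2 protein made from Dpysl2 favours axon formation.

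Promoter sequences from RefSeq (rat build GRCr8) matched 7 of the 10 genes, all but Gap43, Stmn2 and Dpysl2. The sequences of Marcks, Marcksl1 and Stmn1 are shown because Marcks and Marcksl1, close relatives, lay on opposite sides of SFMA in the library of NL-SFMA, and Stmn1 was the other gene past 1.5-fold lower there. Each is the 250 bases before the annotated start, 5′ to 3′ on the gene's strand, at chr20:42245883-42246132 on the minus strand for Marcks, chr5:147135577-147135826 on the plus strand for Marcksl1 and chr5:151964929-151965178 on the plus strand for Stmn1. Capitals mark motifs sought on both strands. The GC box was sought as GGGCGG. The CCAAT box was sought as CCAAT. The E-box was sought as CACGTG. The TATA box was sought as TATAAA. An E2F-type site was sought as TTTGGCGC. None of these strings contains another. The motifs were chosen after the sequences were seen.
Marcks: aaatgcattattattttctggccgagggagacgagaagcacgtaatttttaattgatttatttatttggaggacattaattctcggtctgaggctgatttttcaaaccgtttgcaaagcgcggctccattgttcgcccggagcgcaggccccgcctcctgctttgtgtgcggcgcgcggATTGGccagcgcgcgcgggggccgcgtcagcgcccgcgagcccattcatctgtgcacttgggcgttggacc
Marcksl1: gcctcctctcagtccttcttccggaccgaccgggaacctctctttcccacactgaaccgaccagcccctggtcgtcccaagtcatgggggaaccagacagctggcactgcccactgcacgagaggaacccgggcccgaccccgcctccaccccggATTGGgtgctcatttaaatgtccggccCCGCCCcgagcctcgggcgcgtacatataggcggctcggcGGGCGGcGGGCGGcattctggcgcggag
Stmn1: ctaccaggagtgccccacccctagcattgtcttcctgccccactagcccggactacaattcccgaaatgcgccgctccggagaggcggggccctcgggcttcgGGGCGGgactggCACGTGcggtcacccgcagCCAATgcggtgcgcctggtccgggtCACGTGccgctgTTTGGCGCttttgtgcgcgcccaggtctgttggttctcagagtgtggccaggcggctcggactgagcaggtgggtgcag
The Marcks window is 55.6% G and C and holds 1 CCAAT box. The Marcksl1 window is 68.0% G and C, with 1 CCAAT box and 3 GC boxes. The Stmn1 window is 67.6% G and C, with 2 E-boxes, 1 CCAAT box, 1 GC box and the E2F-type site. Among 33469 promoters of this length the median was 51.2% G and C, 34.0% held a CCAAT box, 30.5% a GC box, 5.59% an E-box, 12.9% a TATA box and 0.412% the E2F-type site. The windows of the other matched genes, Basp1, Crmp1, Dpysl5 and Dpysl3 (which has 2 starts), were between 61.2% and 76.8% G and C and held 1 to 6 GC boxes. A match describes these letters and is not a site of binding, and the submitters' processing notes name other builds for the hydrogel files.

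Summed read counts lay between 14172205 (NL-SFMA) and 17553098 (SFMA). The 10 genes took 1.14%, 1.42%, 1.32% and 1.10% of the reads. All 9 neuronal markers sought (Tubb3, Map2, Dcx, Rbfox3, Snap25, Syt1, Nefl, Nefm and Elavl3) were present in every library. Their summed levels were 2126, 2987, 2395 and 2251 FPKM, most of it from Tubb3. Elavl3 also stands in the list of RNA-binding and chromatin regulators below, and Snap25 in that of growth cone actin and membrane. The 8 radial glia and progenitor markers summed to 1501 FPKM on SFMA and to 673, 662 and 754 FPKM on the other hydrogels, with Vim and Fabp7 the most abundant and none at 0. Erythroid markers summed to 546 FPKM on SFMA against 161, 90.8 and 69.7 FPKM, and microglial markers (6 of 7 found) to 21.3 against 7.47, 14.8 and 5.64 FPKM, with P2ry12 at 0 on N-SFMA and C1qa at 0 on NL-SFMA. Astrocyte markers summed to between 8.43 and 11.5 FPKM and those of the oligodendrocyte lineage to 15.2, 8.56, 9.56 and 6.30 FPKM. Endothelial markers summed to at most 0.653 FPKM and those of meningeal fibroblasts to at most 2.45 FPKM, with Cdh5 at 0 on N-SFMA, Dcn at 0 on L-SFMA and Lum at 0 on NL-SFMA. The summed radial glia, erythroid, microglial and oligodendrocyte lineage markers were thus highest on SFMA. Hes5 and Nes of the radial glia list and C1qa of the microglial list were higher on L-SFMA. Mbp (3.02, 3.53, 4.02 and 3.25 FPKM) and Pdgfra (0.0343, 0.361, 0.258 and 0.276 FPKM) of the oligodendrocyte lineage list were lowest on SFMA. The part of these marker levels in the differences from SFMA below was not tested. Mitochondrially encoded genes held 5.89% of the reads on NL-SFMA and 2.23% to 2.68% on the others. These are bulk libraries, in which fewer cells of a type and less RNA per cell cannot be told apart.

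All 10 genes were strongly expressed. By FPKM, which scales a read count to gene model length and to library depth, they ranked between 32nd and 950th of all genes in the 4 libraries. Stmn1 was the highest on SFMA, N-SFMA and L-SFMA, and Gap43 the lowest of the 10 on every hydrogel. On SFMA the order by FPKM was Stmn1 (885), Basp1 (555), Stmn2 (539), Marcksl1 (398), Crmp1 (379), Dpysl5 (310), Dpysl3 (304), Dpysl2 (258), Marcks (128) and Gap43 (83.7), and there only Dpysl5 and Dpysl3 were neighbours with overlapping counting intervals. On NL-SFMA Stmn2 (554 FPKM) and Dpysl3 (541) came before Basp1 (487) and Stmn1 (485), and the intervals of Stmn2 and Dpysl3 overlapped, as did those of Basp1 and Stmn1. On N-SFMA and L-SFMA no neighbours overlapped.

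**Figure D1:**
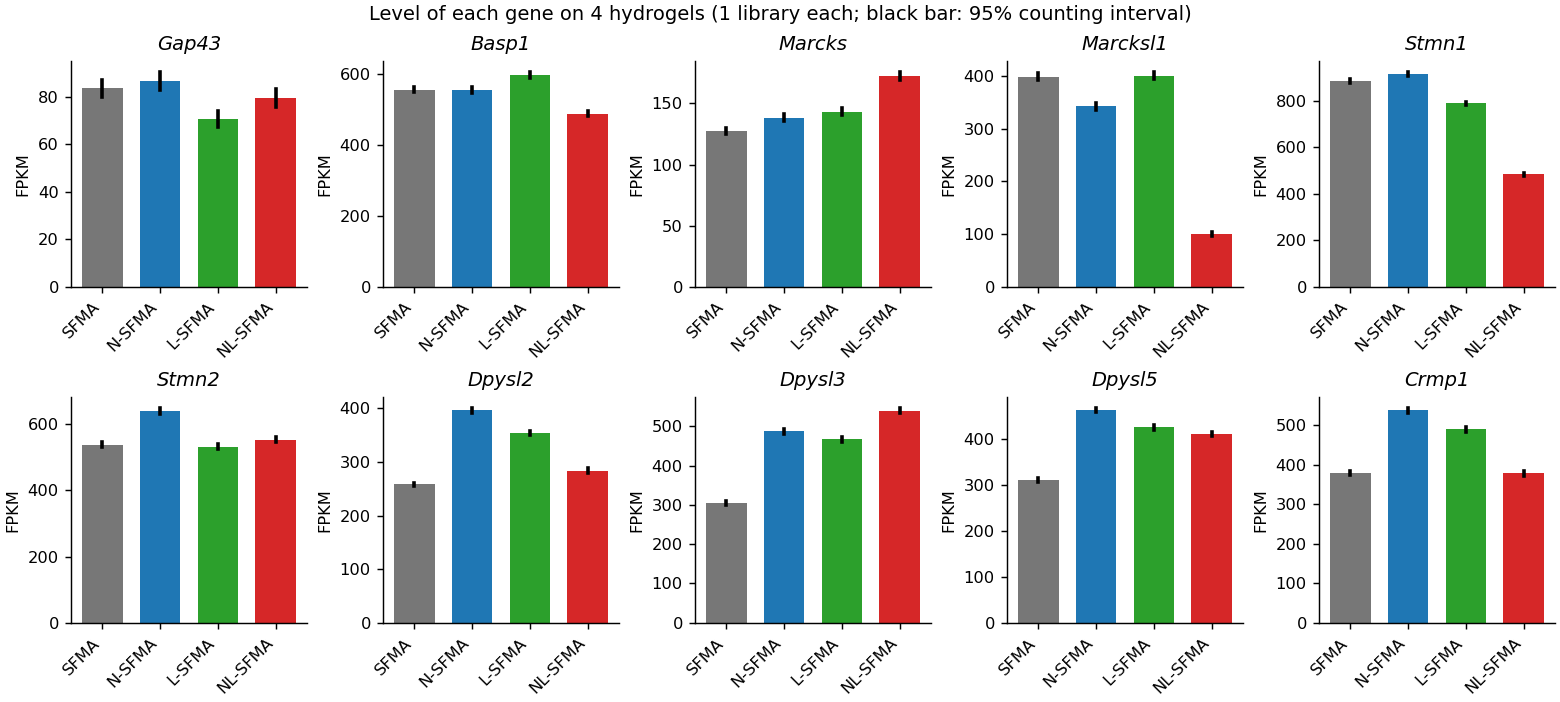
Level of each of the 10 genes (vertical axis, FPKM from 0, with its own scale per gene) on the 4 hydrogels, 1 library each; black bars are 95% counting intervals. Marcksl1 stands at 99.5 FPKM on NL-SFMA against 342 to 401 on the others, Stmn1 is lowest on NL-SFMA, and the 4 CRMP genes are lower on SFMA than on N-SFMA or L-SFMA.

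Of the PIP2-binding membrane proteins, Marcksl1 was lower on NL-SFMA, and the others lay within 1.35-fold of SFMA on every hydrogel. Marcksl1, which encodes the smaller relative of MARCKS, was at 398, 342, 401 and 99.5 FPKM. The NL-SFMA library was the low one, and the others did not go under 342 FPKM. As a ratio of reads scaled to the library total (CPM), Marcksl1 was 4.00-fold lower on NL-SFMA than on SFMA (95% counting interval 3.84 to 4.17), 3.44-fold lower than on N-SFMA (3.30 to 3.59) and 4.03-fold lower than on L-SFMA (3.86 to 4.20). On the log2 scale of FPKM + 1 used below its difference from SFMA was -1.99, and 228 of the 12394 genes tested (those with at least 1 FPKM in some library) lay lower.

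Marcks itself, the larger protein with the same kind of effector domain, was at 128, 138, 143 and 173 FPKM. NL-SFMA was the high library, 1.35-fold above SFMA (1.31 to 1.39). Gap43, the growth-associated protein of axons, was at 83.7, 86.7, 70.7 and 79.7 FPKM. Its counting interval against SFMA included equality on N-SFMA (1.04-fold, 0.975 to 1.10) and on NL-SFMA (0.952-fold, 0.892 to 1.01), while on L-SFMA Gap43 was 1.18-fold lower (1.11 to 1.26), a log2 difference of -0.24 that is 0.07 with the trend in gene length described below removed. Basp1, whose protein resembles GAP-43 in charge and membrane anchoring, was at 555, 554, 597 and 487 FPKM. It differed least between SFMA and N-SFMA (0.999-fold, 0.978 to 1.02). Gap43 and Basp1 thus spanned 1.23-fold and 1.22-fold from their lowest to their highest library, and Marcksl1 4.03-fold.

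The stathmins parted on NL-SFMA, where Stmn1 was lower and Stmn2 lay near SFMA. Stmn1, the cytosolic stathmin of dividing and young neural cells, was at 885, 917, 790 and 485 FPKM. It was 1.82-fold lower on NL-SFMA than on SFMA (1.79 to 1.85), 1.89-fold lower than on N-SFMA (1.86 to 1.92) and 1.63-fold lower than on L-SFMA (1.60 to 1.66). Stmn2, the membrane-attached neuronal stathmin also called SCG10, was at 539, 641, 533 and 554 FPKM. N-SFMA was its high library, 1.19-fold above SFMA (1.17 to 1.21), and on L-SFMA its interval included equality (0.989-fold, 0.969 to 1.01). On NL-SFMA Stmn2 was 1.03-fold above SFMA (1.01 to 1.05). Of the 8 radial glia and progenitor markers, 5 were lower on NL-SFMA than on N-SFMA and 6 lower than on L-SFMA, among them Sox2 (72.1, 44.4, 52.3 and 30.7 FPKM), while Vim was higher (1088, 535, 486 and 633 FPKM). Their part in the Stmn1 difference was not tested.

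All 4 CRMP genes were higher on N-SFMA and on L-SFMA than on SFMA, and on NL-SFMA they went separate ways. Dpysl3, which encodes CRMP4, was at 304, 488, 468 and 541 FPKM, and SFMA was its low library. Its ratio to SFMA was 1.60 (1.57 to 1.63), 1.54 (1.51 to 1.57) and 1.78 (1.74 to 1.81). Dpysl2, which encodes CRMP2, was at 258, 396, 354 and 284 FPKM, or 1.54-fold (1.51 to 1.56), 1.37-fold (1.35 to 1.40) and on NL-SFMA 1.10-fold (1.08 to 1.12) above SFMA, where removing the length trend turned the direction.

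Dpysl5, which encodes CRMP5, was at 310, 462, 425 and 411 FPKM, or 1.49-fold (1.47 to 1.51), 1.37-fold (1.35 to 1.39) and 1.32-fold (1.30 to 1.35) above SFMA. Crmp1 was at 379, 537, 489 and 378 FPKM. For Crmp1 the ratio to SFMA was 1.42 (1.39 to 1.44) on N-SFMA and 1.29 (1.27 to 1.31) on L-SFMA, and on NL-SFMA the interval included equality (0.997-fold, 0.978 to 1.02). N-SFMA was the high library for Dpysl2, Dpysl5 and Crmp1, and NL-SFMA for Dpysl3. All 9 neuronal markers were above their SFMA level on N-SFMA and on L-SFMA, and 7 of 9 were on NL-SFMA. Tubb3 (1882, 2602, 1957 and 1659 FPKM) was highest on N-SFMA and Dcx (68.3, 140.4, 161 and 266 FPKM) on NL-SFMA, and the part of the neuronal markers in the CRMP differences was not tested. The median log2 difference of the 4 CRMP genes from SFMA was 0.60, 0.45 and 0.27 on the lettered hydrogels in that order, where the median over all tested genes was -0.02, 0.05 and -0.10. With the trend in gene length removed the CRMP medians were 0.44, 0.18 and 0.01, and on L-SFMA Dpysl2 went from 0.45 to 0.12 and Dpysl5 from 0.45 to 0.14.

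A size rule of 1.5-fold on log2(FPKM + 1) was applied to the comparisons with SFMA, which all share the SFMA library. On N-SFMA 2 of the 10 genes, Dpysl2 (0.62) and Dpysl3 (0.68), were past 1.5-fold higher and 0 were lower, where 7.24% of all tested genes were higher and 10.7% lower. On L-SFMA 1 of 10, Dpysl3 (0.62), was higher and 0 were lower, against 14.8% and 11.1% of all tested genes. On NL-SFMA 1 of 10, Dpysl3 (0.83), was higher and 2 of 10, Marcksl1 (-1.99) and Stmn1 (-0.87), were lower, against 21.6% and 29.3% of all tested genes. The counts on L-SFMA and NL-SFMA are near the background and are no result about the members. Every count stayed the same with mitochondrially encoded genes left out of the library total. With TMM or DESeq2 size factors 3 in place of 2 members were higher on N-SFMA, Dpysl5 (0.57) being at 0.61 under both. Past 2-fold there was only Marcksl1 on NL-SFMA, where 15.1% of tested genes were 2-fold lower and 10.1% higher. The corresponding shares were 2.65% lower and 0.855% higher on N-SFMA and 3.04% lower and 3.32% higher on L-SFMA, with 0 of the 10 members in each. Dpysl3 on L-SFMA came under 1.5-fold with TMM scaling (0.56), with DESeq2 size factors (0.55) and with the length trend removed (0.55).

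**Figure D2:**
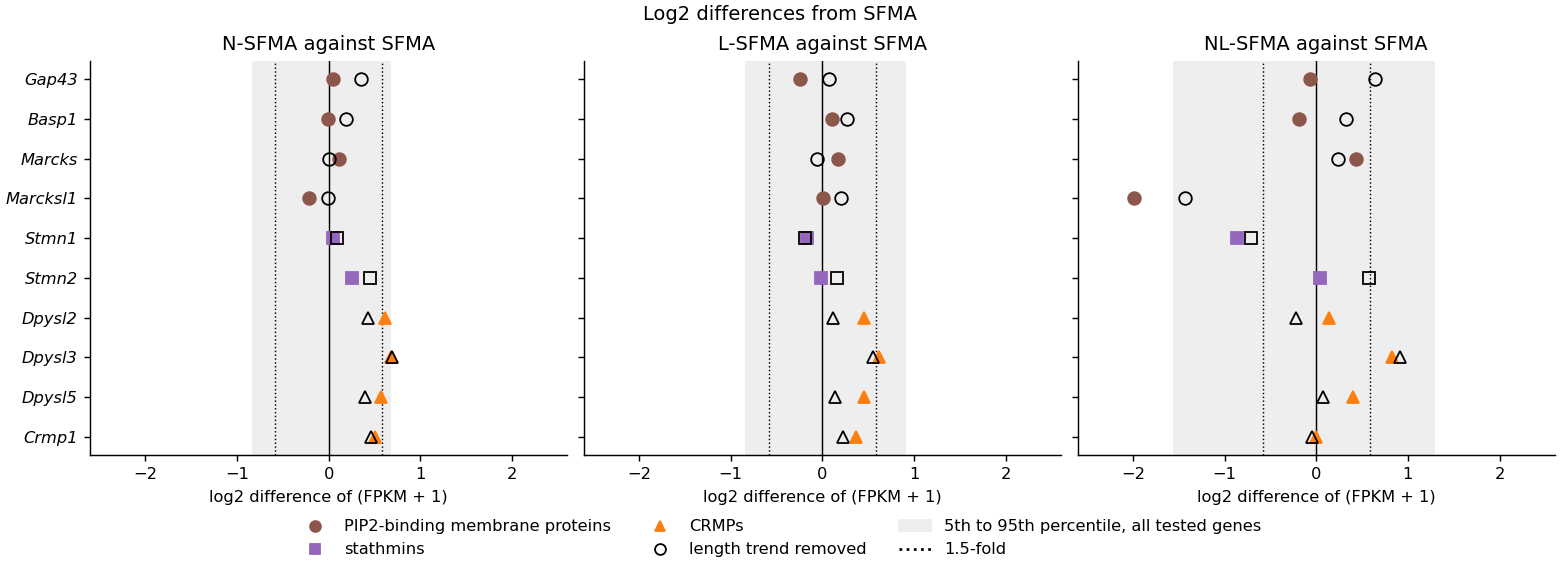
Log2 difference of FPKM + 1 from SFMA (horizontal axis) for each of the 10 genes on N-SFMA, L-SFMA and NL-SFMA, 1 library each. Filled symbols are the differences as measured and open symbols those with the trend in gene model length removed. Dotted lines mark 1.5-fold and the grey band holds the middle 90% of all tested genes. As measured, Marcksl1 on NL-SFMA lies outside the band at -1.99. Dpysl3 on N-SFMA (0.679) lies just past the upper edge of the band (0.674).

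The differences between these libraries run with the length of the gene model, and the 10 genes have models of 1481 (Gap43) to 5030 bases (Dpysl2). Over the 12394 tested genes the log2 difference from SFMA had a correlation with log2 length of r = 0.46 (N-SFMA), r = 0.53 (L-SFMA) and r = 0.50 (NL-SFMA), given as a description since genes share libraries. At the length of Gap43 the trend on NL-SFMA stood at -0.72, so that Gap43 (-0.07 as measured) was 0.64 above genes of its length. At the length of Dpysl2 the trend stood at 0.36, and removing it put Dpysl2 (0.14 as measured) at -0.23. Removal on NL-SFMA gave -1.43 for Marcksl1, -0.71 for Stmn1 and 0.91 for Dpysl3, which stayed past 1.5-fold, and 0.57 for Stmn2, 0.32 for Basp1, 0.24 for Marcks, 0.07 for Dpysl5 and -0.05 for Crmp1. Gap43 joined Dpysl3 on that scale, so that 2 of 10 were past 1.5-fold higher and 2 lower, where 19.1% of tested genes were higher and 18.9% lower. On N-SFMA removal left 1 of 10 higher, Dpysl3 (0.69), and 0 lower, against 5.79% and 6.78% of tested genes. On L-SFMA 0 of 10 were past 1.5-fold, against 8.12% higher and 7.46% lower.

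Some members of nearly the same length still differed from each other. Marcksl1, Stmn2 and Basp1 have models of 1944, 2000 and 2046 bases, and on NL-SFMA their measured log2 differences from SFMA were -1.99, 0.04 and -0.19. The 322 tested genes of that length range had a median of -0.60, with 5% below -1.62 and 5% above 0.72, so Marcksl1 lay under the lower bound and the other two inside. Stmn1, Dpysl3 and Crmp1 have models of 2940, 3162 and 3585 bases and differed by -0.87, 0.83 and -0.00 where 1602 genes had a median of -0.07, with 5% below -1.06 and 5% above 1.01. Those bounds held Stmn1, Dpysl3 and Crmp1. On N-SFMA Dpysl3 (0.68) lay above the value exceeded by 5% of those 1602 genes (0.51), and Crmp1 (0.50) lay just under it. Marcks, Dpysl5 and Dpysl2, with models of 4180, 4845 and 5030 bases, lay closer together on NL-SFMA, at 0.43, 0.40 and 0.14. The 1132 tested genes of that range had a median of 0.26 there, with 5% below -0.80 and 5% above 1.25. On N-SFMA Dpysl2 (0.617) lay just above the value exceeded by 5% of those 1132 genes (0.613).

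**Figure D3:**
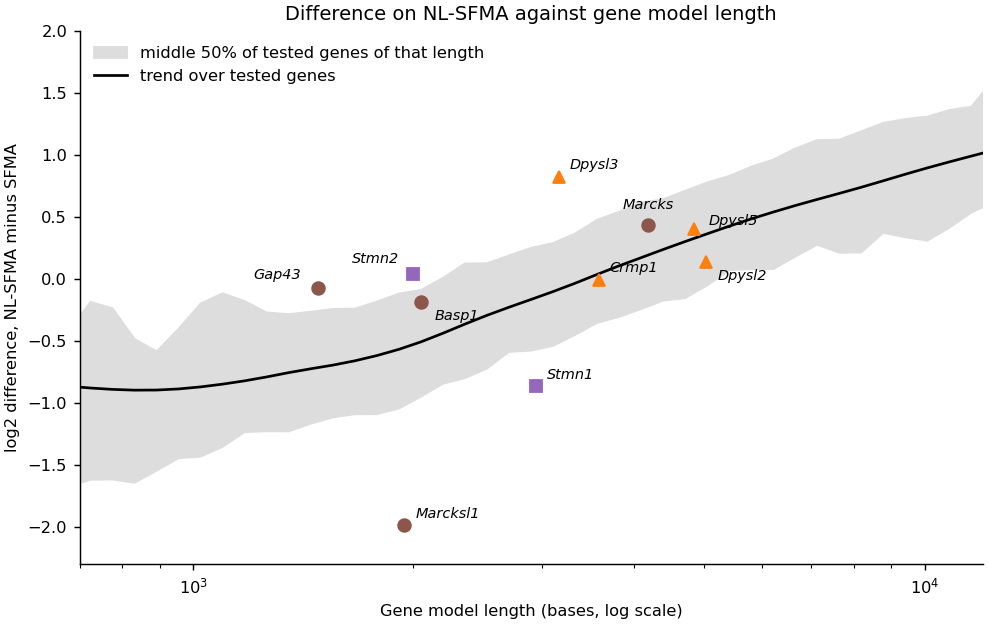
Measured log2 difference between NL-SFMA and SFMA (vertical axis) against gene model length in bases (horizontal log axis) for the 10 genes, 1 library per hydrogel. The line is the trend over tested genes and the grey band the middle 50% of genes of that length; Marcksl1 and Stmn1 lie below the band and Dpysl3, Stmn2 and Gap43 above it.

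The names can be read as 2 factors, N and L, on the assumption that each letter means the same in every name. The difference that goes with N is then seen in N-SFMA against SFMA and, in separate libraries, in NL-SFMA against L-SFMA. For Dpysl2 these differences were 0.62 and -0.32, for Crmp1 0.50 and -0.37, for Dpysl5 0.57 and -0.05, and for Dpysl3 0.68 and 0.21. The CRMP genes were thus 1.42-fold to 1.60-fold higher with N alone, and with N added to L they lay between 0.772-fold and 1.16-fold. The sign for Dpysl5 in NL-SFMA against L-SFMA depended on the scaling (0.08 with TMM, 0.12 with DESeq2 size factors). Marcksl1 was 1.16-fold lower in the first pair and 4.03-fold lower in the second, and Stmn1 differed by 0.05 and -0.70. Gap43 (0.05 and 0.17), Marcks (0.12 and 0.27) and Stmn2 (0.25 and 0.06) had the same sign in both pairs.

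Of the 10 genes 2, Marcksl1 and Stmn1, were past 1.5-fold lower in NL-SFMA against L-SFMA and 0 higher, against 20.9% and 7.23% of all tested genes. Past 2-fold lower there was 1, Marcksl1, against 6.87%. With the length trend removed 1 of 10, Marcksl1 (-1.66), was lower and 0 higher, against 12.9% and 11.0%. Scaling moves the background of this pair: TMM shifted the median of all tested genes by 0.12 and DESeq2 size factors by 0.15, and the share of 1.5-fold calls that were higher went from 25.7% to 41.6% and 47.1%. Stmn1 came to -0.58 and -0.53 in the same order, under 1.5-fold, and to -0.54 with the length trend removed. The L difference was read in L-SFMA against SFMA and in NL-SFMA against N-SFMA, and it was 0.45 and -0.48 for Dpysl2, 0.37 and -0.51 for Crmp1, 0.45 and -0.17 for Dpysl5, 0.62 and 0.15 for Dpysl3, 0.01 and -1.77 for Marcksl1 and -0.16 and -0.92 for Stmn1. In NL-SFMA against N-SFMA 2 of 10, again Marcksl1 and Stmn1, were lower and 0 higher, against 18.0% and 12.5% of tested genes. Marcksl1 alone was past 2-fold lower, against 5.58%. With the length trend removed 3 of 10, Marcksl1, Stmn1 and Dpysl2 (-0.66), were lower and 0 higher, against 11.8% and 11.5%.

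The gap between the N difference with L and without L was -1.78 for Marcksl1, and 26 of the 12394 tested genes had a lower one. It was -0.93 for Dpysl2, -0.87 for Crmp1, -0.75 for Stmn1, -0.62 for Dpysl5 and -0.47 for Dpysl3. It lay between -0.29 and 0.15 for Basp1, Stmn2, Gap43 and Marcks. The median gap over all tested genes was -0.13, with 5% of them below -0.94. The gap between the L difference with N and without N is the same number. Each gap rests on 4 libraries with no replicate and was not tested.

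**Figure D4:**
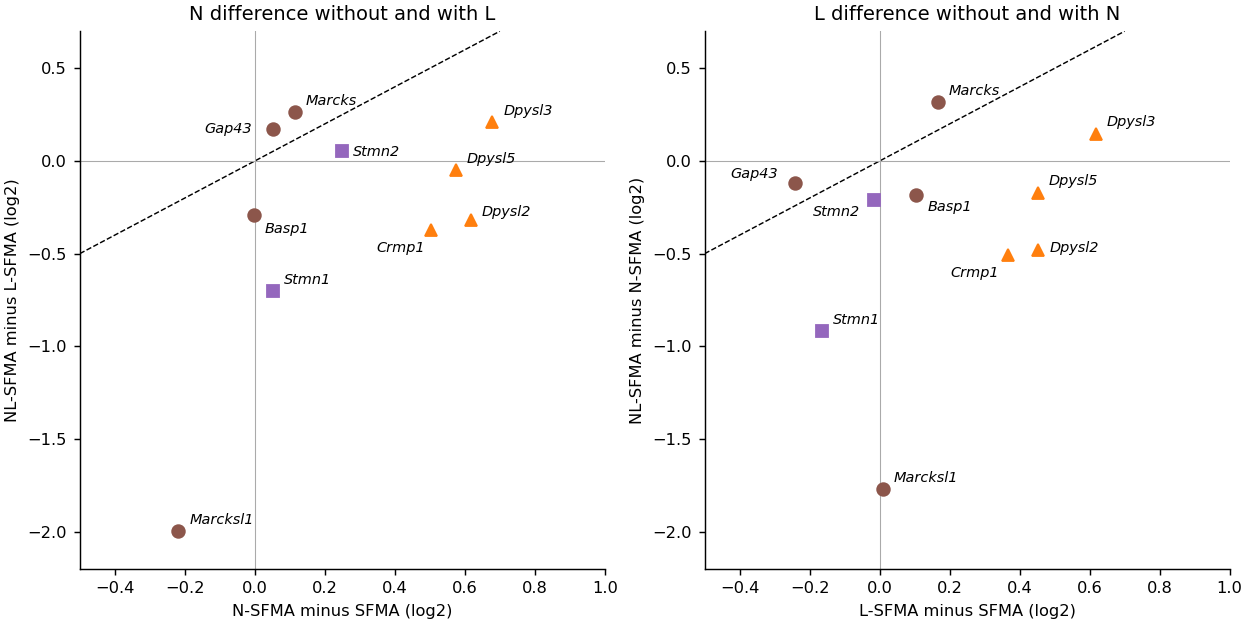
Left, log2 difference of NL-SFMA from L-SFMA against that of N-SFMA from SFMA; right, that of NL-SFMA from N-SFMA against that of L-SFMA from SFMA, for the 10 genes, 1 library per hydrogel. The dashed line marks equal differences. The CRMP genes (triangles) lie to the right of 0 and below the line, and Marcksl1 lies lowest in both panels. Both panels draw on the same libraries and are not separate observations.

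Ratios between members within a library do not depend on the scaling of that library. Marcksl1 stood at 3.12 times the FPKM of Marcks on SFMA (counting interval 3.04 to 3.20), 2.47 on N-SFMA and 2.79 on L-SFMA, and at 0.577 (0.553 to 0.602) on NL-SFMA, the one library with more Marcks than Marcksl1. Stmn2 stood at 0.608 times the FPKM of Stmn1 on SFMA, at 0.698 and 0.674 on N-SFMA and L-SFMA and at 1.14 (1.12 to 1.17) on NL-SFMA, again the one library with the order exchanged. The FPKM ratio of Stmn2 to Gap43 varied little, from 6.43 (6.16 to 6.73) on SFMA to 7.54 (7.17 to 7.93) on L-SFMA. The FPKM ratio of Gap43 to Basp1 was between 0.118 on L-SFMA and 0.163 on NL-SFMA. Dpysl3 went from 1.18 times Dpysl2 on SFMA (1.16 to 1.20) to 1.23, then 1.32 and, on NL-SFMA, 1.90 (1.87 to 1.94). The FPKM ratio of Crmp1 to Dpysl2 stayed between 1.33 and 1.47. The trend with length bears also on ratios of genes whose models differ in length, as those of Marcks (4180 bases) and Marcksl1 (1944 bases) do.

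The make-up of the whole CRMP family, with Dpysl4 (CRMP3) added, stood apart most on NL-SFMA. Dpysl3 made up 23.7%, 25.4% and 26.5% of the family's summed FPKM on the first 3 hydrogels and 33.1% on NL-SFMA. Crmp1 made up 29.5%, 28.0%, 27.7% and 23.1%, and Dpysl2 20.1%, 20.7%, 20.1% and 17.4%. Dpysl5 kept to between 24.1% and 25.2%. In the stathmin family Stmn1 made up 49.6%, 48.2%, 48.2% and 40.0% of the summed FPKM and Stmn2 30.2%, 33.7%, 32.5% and 45.6%.

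**Figure D5:**
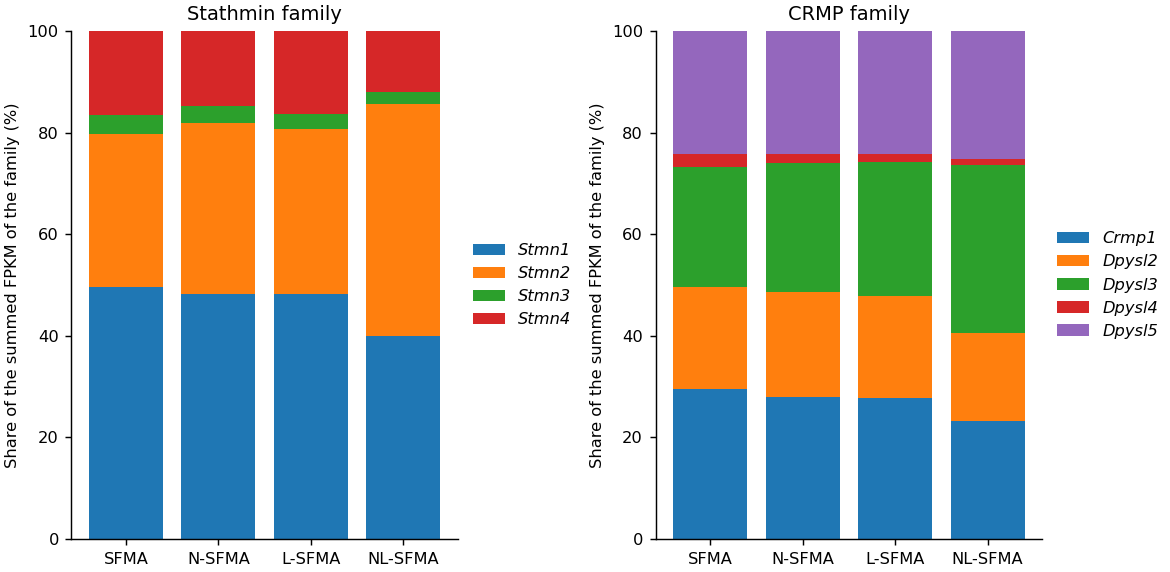
Share of each gene in the summed FPKM of the stathmin family (left) and the CRMP family (right), in percent, for the 4 hydrogels with 1 library each. Stmn2 takes 45.6% on NL-SFMA against 30.2% to 33.7% on the others, and Dpysl3 33.1% against 23.7% to 26.5%.

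Of the 3 family relatives outside the 10 genes, 3 were past 1.5-fold lower on NL-SFMA, against 29.3% of all tested genes. Stmn4, a neuronal stathmin also called RB3, was at 296, 281, 266 and 144 FPKM, 2.05-fold lower on NL-SFMA than on SFMA (1.96 to 2.14). Stmn3, the stathmin SCLIP, was at 66.1, 62.2, 49.2 and 30.8 FPKM, 2.15-fold lower (2.05 to 2.25). Dpysl4 was at 32.0, 33.4, 28.3 and 18.3 FPKM, 1.75-fold lower (1.60 to 1.92). With the length trend removed their differences were -0.30 for Stmn4, -1.55 for Stmn3 and -0.52 for Dpysl4, so that only Stmn3 remained past 1.5-fold, against 18.9% of tested genes lower. As measured Stmn2 (0.04) was the stathmin gene nearest its SFMA level on NL-SFMA, and with the length trend removed (0.57) it was not.

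Between L-SFMA and N-SFMA, the hydrogels with a single letter, no member of the 10 was past 1.5-fold in either direction. Of all tested genes 3.00% were higher on L-SFMA and 1.09% lower, so this count is near the background and is no result about the members. The median difference of the members was -0.13, where that of all tested genes was 0.08, and it was -0.245 with the length trend removed. The largest difference was that of Gap43, at -0.29, and 770 of the 12394 tested genes lay lower. Stmn2 (-0.27), Stmn1 (-0.22), Dpysl2 (-0.16), Crmp1 (-0.14), Dpysl5 (-0.12) and Dpysl3 (-0.06) were lower on L-SFMA, and Marcksl1 (0.23), Basp1 (0.11) and Marcks (0.05) higher. The sign for Marcks changed with TMM scaling (-0.04), with DESeq2 size factors (-0.05) and with the length trend removed (-0.06). In this pair the share of 1.5-fold calls over all genes that were higher went from 73.4% to 55.6% with TMM and 52.7% with DESeq2 size factors.

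Among the partners of these proteins, the semaphorin receptors, ligands and CRMP partners past 1.5-fold were all higher as measured. Of 18 genes 11 were past 1.5-fold higher on N-SFMA, 11 were on L-SFMA and 12 were on NL-SFMA, and 0 were lower, with medians of 0.70, 0.87 and 0.99. Of all tested genes 7.24%, 14.8% and 21.6% were higher and 10.7%, 11.1% and 29.3% lower. The receptor genes Nrp1 (9.15, 18.6, 28.5 and 32.9 FPKM), Plxna4 (3.33, 9.20, 14.8 and 18.4 FPKM) and Plxna2 (17.0, 38.3, 56.3 and 76.7 FPKM) and the ligand Sema3c (28.4, 57.6, 70.6 and 113 FPKM) had the largest differences on NL-SFMA. Many of these models are long, and with the length trend removed 6, 7 and 6 of the 18 were higher and 0, 0 and 1 lower, with medians of 0.35, 0.38 and 0.44. On that scale 5.79%, 8.12% and 19.1% of all tested genes were higher and 6.78%, 7.46% and 18.9% lower.

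Genes of growth cone actin and membrane turnover, like all tested genes, were past 1.5-fold more often on NL-SFMA than on N-SFMA or L-SFMA. Of 25 genes 0 were past 1.5-fold on N-SFMA, where 10.7% of all tested genes were lower and 7.24% higher. On L-SFMA 1 was lower and 0 higher, against 11.1% and 14.8%. On NL-SFMA 10 were lower and 1 higher, against 29.3% and 21.6%. The median there was -0.42, and that of all tested genes -0.10. On NL-SFMA 19 of the 25 lay below SFMA and 6 above. Cfl1, which encodes the actin-severing protein cofilin, was at 907, 660, 557 and 244 FPKM. The actin regulator Vasp (16.6, 11.3, 13.1 and 4.50 FPKM), the vesicle protein gene Syp (103, 112, 100.2 and 42.7 FPKM) and the actin-binding gene Dbnl (82.9, 70.5, 64.5 and 38.6 FPKM) followed. With the length trend removed 9 of 25 were lower and 2 higher on NL-SFMA, with a median of -0.41, against 18.9% and 19.1% of all tested genes.

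Kinases and phosphatases that act on the 10 proteins differed both ways. Of 28 tested genes of 29 listed, 1 was past 1.5-fold higher and 2 lower on N-SFMA, 7 and 2 on L-SFMA, and 11 and 7 on NL-SFMA, with medians of 0.24, 0.35 and 0.32. The shares of all tested genes higher and lower were 7.24% and 10.7%, 14.8% and 11.1%, and 21.6% and 29.3%. After removal of the length trend 2 and 2, 4 and 3, and 10 and 5 of the 28 were higher and lower. On that scale 5.79% and 6.78%, 8.12% and 7.46%, and 19.1% and 18.9% of all tested genes were. Rock1 (3.55, 4.24, 7.65 and 11.2 FPKM) and Rock2 (2.88, 4.27, 5.82 and 10.6 FPKM), kinases that phosphorylate CRMP2, were higher on NL-SFMA, and the phosphatase subunit Ppp1ca (105, 76.6, 70.3 and 25.8 FPKM) and the mitotic kinase Cdk1 (67.7, 31.6, 33.0 and 21.5 FPKM), which phosphorylates stathmin, were lower. Less the length trend, Rock1 stood at 0.95, Rock2 at 0.77, Ppp1ca at -1.30 and Cdk1 at -0.86 on NL-SFMA.

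Calm3, which encodes calmodulin, was at 399, 378, 356 and 199 FPKM, and NL-SFMA was its low library. Of the genes for relatives that bind calmodulin, Pcp4 stood at -1.65 on NL-SFMA against SFMA on the log2 scale and Nrgn, neurogranin, which shares the calmodulin-binding motif of GAP-43, at -2.08, both with under 30 FPKM. Among 11 RNA-binding and chromatin regulators of neuronal transcripts 0 were past 1.5-fold on N-SFMA (7.24% of all tested genes higher and 10.7% lower). On L-SFMA 2 were higher and 0 lower (14.8% and 11.1%), and on NL-SFMA 4 were higher and 1 lower (21.6% and 29.3%). Less the length trend, 0 were higher and 1 lower on N-SFMA (5.79% and 6.78% of all tested genes). Those counts were 1 and 1 on L-SFMA (8.12% and 7.46%) and 4 and 1 on NL-SFMA (19.1% and 18.9%). The higher ones on NL-SFMA as measured were Elavl2 (30.1, 40.8, 39.7 and 74.2 FPKM), Rcor1 (4.44, 6.54, 8.45 and 11.0 FPKM), Elavl4 (31.2, 46.9, 46.1 and 66.9 FPKM) and Elavl3 (51.7, 62.5, 90.1 and 96.3 FPKM). The Elavl4 protein HuD binds and stabilises Gap43 RNA, and Elavl3 was also counted among the neuronal markers.

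Of 9 enzymes of lipid anchoring, 0 were past 1.5-fold on N-SFMA, where 7.24% of all tested genes were higher and 10.7% lower. On L-SFMA 1 was higher and 0 lower, against 14.8% and 11.1%. On NL-SFMA 3 were higher and 1 lower, against 21.6% and 29.3%. Once the length trend was removed 0, 1 and 4 were higher on N-SFMA, L-SFMA and NL-SFMA, against 5.79%, 8.12% and 19.1% of all tested genes. On that scale 0, 0 and 1 were lower, against 6.78%, 7.46% and 18.9%. The depalmitoylating enzyme genes Lypla1 (21.5, 23.7, 20.1 and 35.8 FPKM) and Lypla2 (72.5, 48.6, 59.1 and 16.7 FPKM) lay on opposite sides of SFMA on NL-SFMA. The palmitoyltransferase genes Zdhhc17 and Zdhhc13 stood at 1.24 and 0.55 on the log2 scale. With the length trend removed these 4 were at 0.96 for Lypla1, -1.40 for Lypla2, 0.97 for Zdhhc17 and 0.91 for Zdhhc13.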

How the data were processed

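RNA of rat cortical cells on 4 hydrogels was measured in 1 library each, from 1.5 µg of RNA per sample per the labels. The authors deposited raw read counts and FPKM per gene, and the submitters' processing notes name HISAT2 (no version given), HTSeq 0.13.5 and the builds mRatBN7.2 and GRCh38, with no role for either build. The sources used here give neither the strand setting nor any filter. The deposited FPKM equals the count divided by gene model length and summed count, and recovered lengths were whole to within 2.37e-09 bases. Coordinates are those of the RefSeq promoter table only.

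Differences are log2 ratios after adding 1 to each FPKM, over 12394 genes with at least 1 FPKM in at least 1 library, and all 10 members passed. Folds of single genes are CPM ratios with exact 95% intervals given both counts. Reads copied by PCR and not marked by molecular identifiers are not independent, so intervals cover counting error only. Genes past 1.5-fold were counted, and no test between libraries was run because no hydrogel has a replicate. The trend with log2 model length was fitted by lowess (span 0.3, statsmodels 0.14.6) and checked on simulated data. Other scalings came from edgeR 4.0.16 (TMM) and DESeq2 1.42.0 (size factors). Members, lists, comparisons and alternatives were chosen with earlier results of these data known. Besides the 10 members and the 3 family relatives, up to 4 genes per list were named, those with the largest difference of NL-SFMA from SFMA among genes of at least 5 FPKM in the higher library. Calm2 (several entries), Cx3cr1 and Cldn5 (no entry found by name) were not used here. The count over the list of calmodulin genes and their relatives is not reported here.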

Additional observations from a re-analysis of the deposited data

Results flagged for a closer look

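Some members lay on opposite sides in the pairs of libraries that carry the same letter, beyond counting error; none of these differences was tested, since each pair is 1 library against 1. Dpysl2 differed by 0.62 in N-SFMA against SFMA and by -0.32 in NL-SFMA against L-SFMA, and by 0.45 in L-SFMA against SFMA and -0.48 in NL-SFMA against N-SFMA (log2). Crmp1 differed by 0.50 and -0.37 in the N pairs and by 0.37 and -0.51 in the L pairs. For Dpysl5 the N pairs gave 0.57 and -0.049 and the L pairs 0.45 and -0.17, and the -0.049 turns positive with TMM, with DESeq2 size factors and with mitochondrially encoded genes left out of the library total. Stmn1 gave 0.052 and -0.70 in the N pairs. Basp1 gave 0.11 and -0.18 in the L pairs, and the -0.18 is 0.11 with the length trend removed. Every such case has NL-SFMA in the lower pair. The N pairs and the L pairs are drawn from the same libraries and have the same gap, so the L pairs are no further observation.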

How the results depend on the processing

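The counts of members past 1.5-fold were computed under 7 alternatives. With mitochondrially encoded genes left out of the library total, with a pseudocount of 0.1 FPKM or with no filter on low values every count of members stayed the same. TMM and DESeq2 size factors each gave 3 in place of 2 higher on N-SFMA against SFMA, 0 in place of 1 higher on L-SFMA against SFMA and 1 in place of 2 lower on NL-SFMA against L-SFMA. Removing the length trend gave 1 in place of 2 higher for N-SFMA, 0 in place of 1 higher for L-SFMA, 2 in place of 1 higher for NL-SFMA (all against SFMA), 3 in place of 2 lower on NL-SFMA against N-SFMA and 1 in place of 2 lower on NL-SFMA against L-SFMA. At 2-fold no member was higher in the comparisons with SFMA (N-SFMA 0, L-SFMA 0, NL-SFMA 0), and 1 was lower on NL-SFMA against SFMA, 1 against N-SFMA and 1 against L-SFMA. No member past 1.5-fold changed sign; below that size 26 sign changes occurred, 12 of them with the length trend removed.

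Over all tested genes, removing the length trend gave 840 in place of 1327 lower for N-SFMA, 1006 in place of 1836 higher for L-SFMA and 2345 in place of 3632 lower on NL-SFMA (against SFMA), 1460 in place of 2233 lower on NL-SFMA against N-SFMA, and 1367 in place of 896 higher and 1601 in place of 2591 lower against L-SFMA. TMM gave 1428 higher there and DESeq2 size factors 1631, and 229 and 215 in place of 372 higher on L-SFMA against N-SFMA. The pseudocount of 0.1 gave 1430 in place of 897 higher on N-SFMA against SFMA, and 965 in place of 372 higher and 286 in place of 135 lower on L-SFMA against N-SFMA. The cause was not tested. No paired analysis was possible because each hydrogel has 1 library. Depth does not limit these genes, the lowest of which had 1672 reads; the lack of replicates does.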
